A study of Mus musculus with 4 samples.

Results

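Neurons that carried RNA of Lhx1 or of its divergent partner Lhx1os made up 223 of the 4006 neurons of the embryonic mouse arcuate nucleus (ARC) preparation. This is 5.57% (exact binomial 95% interval 4.88% to 6.32%) of the neurons and 3.51% of the 6351 kept cells. The members were chosen by their counts of unique molecular identifiers (UMIs), each of which stands for 1 captured RNA molecule: at least 2 UMIs of Lhx1 and Lhx1os together, at least 2 of the neuronal gene Stmn2, none of Ghrh or Otp and fewer than 3 of Pomc. The 3783 other cells with at least 2 Stmn2 UMIs served for comparison and are called the other neurons. Levels of these 6 selecting genes describe the choice and are not results. The cells came from 6 E15 Pomc-eGfp embryos on the C57BL/6 strain whose GFP-positive ventral hypothalamus was dissected and dissociated with papain, and the titles of the deposited samples give E15.5. There was 1 genotype, no treatment and no control group. The eGfp transgene is driven by Pomc sequences and marked the area to dissect, and the cells were not sorted on it. All embryos were pooled into 1 droplet library, sequenced in 4 runs, so that cells are not replicates, and neither tests nor p-values are given.

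Lhx1 encodes a homeodomain protein with LIM domains, which bind cofactors, and it is known in the hypothalamus as a regulator of the suprachiasmatic nucleus, the clock centre in front of the ARC. Dlx1, Dlx2, Dlx5 and Dlx6 encode homeodomain factors that sit in pairs in the genome and direct the formation of GABA neurons in the ventral forebrain, where the zinc finger factor Sp9 acts with them. Six6 and Six3 encode homeodomain factors of the eye and ventral hypothalamus. In the adult ARC, neurons that make dopamine with tyrosine hydroxylase (Th) also carry GABA markers.

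Lhx1 (ENSMUSG00000018698.15) lies on the minus strand at chr11:84518284-84525535 of GRCm38, the assembly also called mm10, and Lhx1os (ENSMUSG00000087211.7), a long non-coding RNA, lies on the plus strand at chr11:84525660-84535831. The starts of the 2 genes point away from each other and are 124 bases apart, which is shown because both RNAs selected the members. The 249 bases before the start of Lhx1 at chr11:84525536-84525784, read on its minus strand from the RefSeq promoter table on GRCm38.p6, follow with the bases between both starts in capitals.
Lhx1: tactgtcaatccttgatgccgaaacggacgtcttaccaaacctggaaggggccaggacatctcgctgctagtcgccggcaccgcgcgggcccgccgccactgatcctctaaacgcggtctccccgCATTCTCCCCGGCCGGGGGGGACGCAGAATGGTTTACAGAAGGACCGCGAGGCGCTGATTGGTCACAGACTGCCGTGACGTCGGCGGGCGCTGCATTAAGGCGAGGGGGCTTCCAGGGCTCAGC
The full 300-base window of Lhx1 in that table shares 225 bases with the window of Lhx1os and holds 31 CG pairs, against a median of 7 over all 32851 windows. Of the 20 leading genes described below and the 2 Lhx1 locus genes, 16 had a window in the table. The homeodomain core motif TAATTA, which reads the same on both strands, was found in 5.29% of all windows and in 2 of the 20 windows of these 16 genes, both of Dlx6os1, an RNA that overlaps Dlx6 on the opposite strand. The 250 bases before both Dlx6os1 starts, at chr6:6869534-6869783 and chr6:6861684-6861933 on the minus strand, follow with TAATTA in capitals.
Dlx6os1 upstream start: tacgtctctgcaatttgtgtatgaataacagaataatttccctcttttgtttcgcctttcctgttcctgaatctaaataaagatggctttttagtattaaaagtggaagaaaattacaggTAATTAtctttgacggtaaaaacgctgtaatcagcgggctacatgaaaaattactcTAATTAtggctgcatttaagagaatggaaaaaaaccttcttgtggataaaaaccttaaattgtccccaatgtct
Dlx6os1 downstream start: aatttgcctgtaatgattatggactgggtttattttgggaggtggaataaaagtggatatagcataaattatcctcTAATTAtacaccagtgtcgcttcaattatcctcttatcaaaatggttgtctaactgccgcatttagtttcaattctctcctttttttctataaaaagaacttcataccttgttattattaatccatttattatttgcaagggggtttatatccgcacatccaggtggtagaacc
A match of these letters describes the window and is not a measured binding site.

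The members held between 1750 and 8981 UMIs, with a median of 2825, and the other neurons a median of 3467. Because deeper cells detect more genes, shares of cells with a UMI are given as counted and, where named so, after each cell was thinned to 2282 UMIs, which left 189 members and 3417 other neurons. Cells with no Stmn2 UMI (1705) are given as a further comparison. Of them, 57.4% held 3 or more UMIs of listed neural progenitor genes and 29.9% of listed pituitary genes. They are thus cells with RNA of their own, and their shares do not measure RNA that a cell did not make itself. The sum of Lhx1 and Lhx1os had a median of 4 and a highest value of 15 UMIs per member. Both RNAs were found in 163 members, 52 members had no UMI of Lhx1 and 8 had none of Lhx1os. The members held 345 of the 434 Lhx1 UMIs in all kept cells (79.5%) and 736 of the 1002 Lhx1os UMIs (73.5%). Lhx1 was found in 0.587% of the cells with no Stmn2 UMI and Lhx1os in 2.29% of them. A further 47 kept cells had at least 2 UMIs of the pair but were not members: 29 had under 2 Stmn2 UMIs, 12 were left out for Otp, 3 for Ghrh and 3 for Pomc.

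The other markers of the label of an Lhx1-positive ARC neuron are Six6, Sp9 and Dlx1. They were named with earlier results of these data known, so their shares are a description and not an independent check. Six6 UMIs were found in 196 members (87.9%; 82.9% to 91.9%) and in 29.4% of the other neurons. Sp9 was found in 57 members (25.6%) and in 1.82% of the other neurons, and Dlx1 in 120 members (53.8%) and in 5.31%. At least 1 of the 3 genes was found in 208 of the 223 members (93.3%) and in 34.1% of the other neurons, and all 3 together in 37 members (16.6%) and 11 other neurons (0.291%). Six6 was also found in 46.6% of the cells with no Stmn2 UMI, so that its presence alone does not mark these neurons, whereas Sp9 was found in 0.176% of them.

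The ARC part of the label was not met by the factors that define the tuberal hypothalamus. Nkx2-1, the factor that marks progenitors and neurons of this region, was found in 10 members (4.48%) and in 33.4% of the other neurons, at 22.0 CPM (UMIs of the gene per 1000000 UMIs of the pooled group) against 177 CPM. Isl1, a LIM factor of several ARC types, was found in 22 members (9.87%) against 33.1%. Tbx3, a T-box factor of Pomc neurons, was found in 3 members (1.35%) against 12.6%. At least 1 of these 3 was found in 29 members (13.0%) and in 53.4% of the other neurons. The cells are therefore called Lhx1-positive neurons here, by the rule that chose them.

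Ratios of pooled CPM, members over the other neurons, are given with a conditional exact 95% interval that covers counting error only. Of 12584 genes with at least 20 UMIs in both groups together, 502 (3.99%) were over 2-fold higher in the members and 1882 (15%) over 2-fold lower. Counts of listed genes against the other neurons are to be read beside these shares. The other neurons also keep cells with Otp, Ghrh or at least 3 Pomc UMIs, which the rule removed from the members. Ratios to the other neurons do not separate the part of this difference. The members held only 4.41% of the neuronal UMIs, so that a gene with 20 UMIs is expected to give about 1 in them. Among the 9067 genes for which at least 5 UMIs were expected in the members, 126 (1.39%) were over 2-fold higher and 649 (7.16%) over 2-fold lower. The whole interval lay beyond 2-fold for 54 genes higher and 103 genes lower.

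The Dlx and Sp programme of GABA neurons was higher almost throughout. Of its 9 genes with enough UMIs, 7 were over 2-fold higher, against 3.99% over all genes, and Etv1, an ETS factor, was over 2-fold lower. The median log2 ratio of the 9 was 3.46 against -0.07 over all genes tested. Dlx1 stood at 309 CPM in the members against 20.4 CPM, a ratio of 15.2 (12.7 to 18.2). Dlx2 stood at 233 CPM against 25.9 CPM, a ratio of 9.02 (7.45 to 10.9). The second pair was as clear: the ratios were 15 for Dlx6 (10.5 to 21.2) and 11.0 for Dlx5 (8.65 to 13.9). Dlx6os1 had a ratio of 10.2 (7.75 to 13.3). Dlx6os1 overlaps Dlx6, and whether counting kept the strands apart is not given in the sources used here. Sp9 stood at 128 CPM against 6.03 CPM, a ratio of 21.2 (15.6 to 28.8). Sp8, the close relative of Sp9, gave 1 UMI in the members. A UMI of at least 1 of the 5 Dlx locus genes was found in 190 members (85.2%) and in 12.8% of the other neurons.

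**Figure D1:**
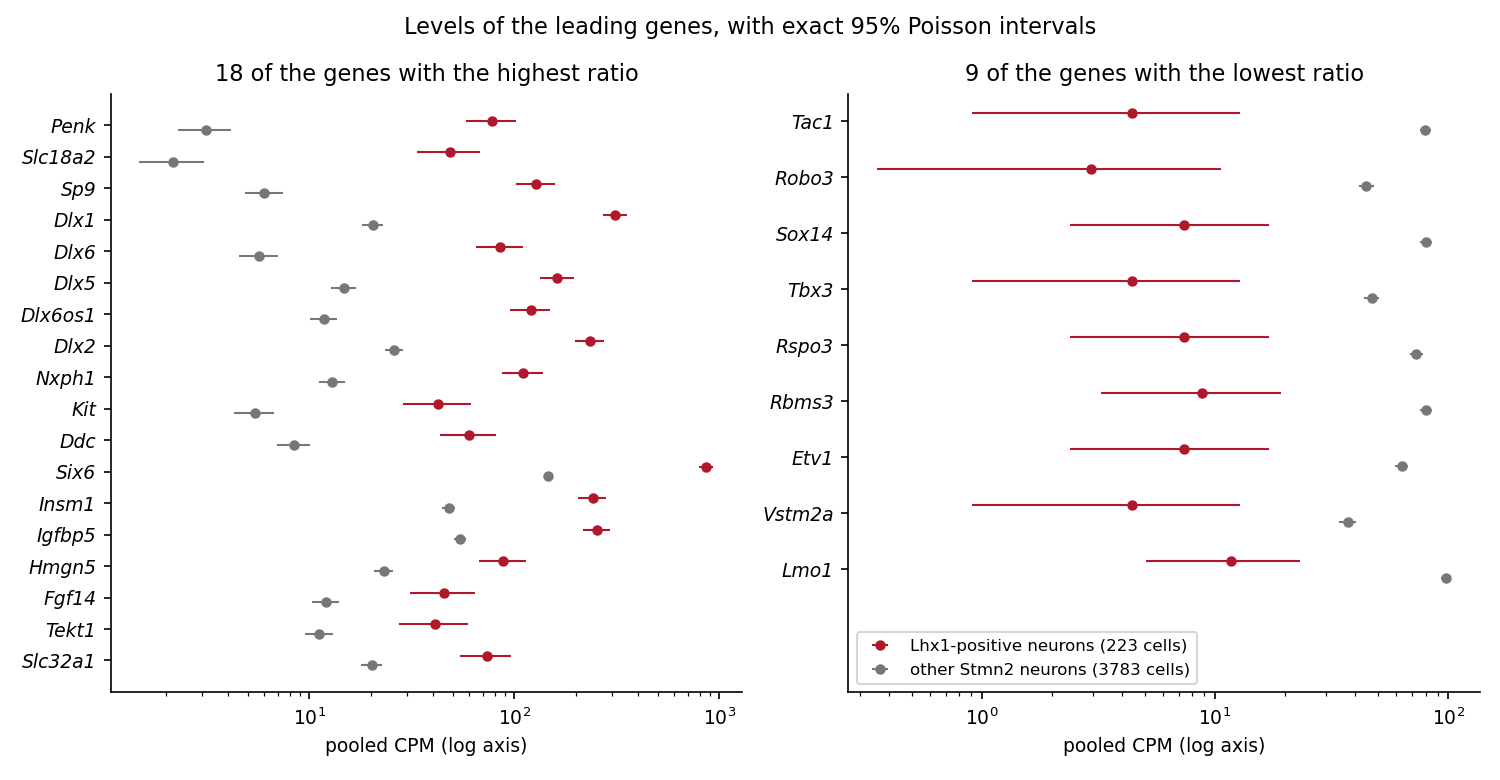
Pooled CPM (log axis) of 18 of the genes with the highest and 9 of those with the lowest ratio in the 223 Lhx1-positive neurons (red) and the 3783 other neurons (grey), with exact 95% Poisson intervals as lines. Sp9 stands at 128 CPM against 6.03 CPM, and the intervals of the 2 groups do not overlap for any gene shown.

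Genes of GABA synthesis and transport were higher in the members, while the glutamate transporter was lower. Gad2, which encodes a GABA-making enzyme, had a ratio of 3.51 (2.53 to 4.78) and was found in 43 members (19.3%) against 6.42% of the other neurons. Gad1, the other GABA-making enzyme, had a ratio of 3.45 (2.32 to 5.0), and Slc32a1, the vesicular GABA transporter, one of 3.65 (2.65 to 4.93). In all, 3 of the 4 genes of the list were over 2-fold higher and none was over 2-fold lower, against 3.99% and 15% over all genes. Slc17a6, the vesicular glutamate transporter, was found in 8 members (3.59%) against 18.7%, with a ratio of 0.290 (0.150 to 0.510), and of 0.141 without the 21 members that held 3 or more UMIs of listed thalamus or habenula genes. At least 1 of Gad1, Gad2 and Slc32a1 was found in 97 members (43.5%) and in 14.7% of the other neurons. Slc17a6 without any of them was found in 6 members (2.69%) and in 17.6% of the other neurons. The remaining members had no UMI of either kind at this depth.

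Of the genes for handling monoamines, Slc18a2 and Ddc were over 2-fold higher, Nr4a2 was over 2-fold lower, and Th and Gch1 lay between. Slc18a2, which loads dopamine and other monoamines into vesicles, was counted 33 times in the members and 32 times in all other neurons, a ratio of 22.3 (13.3 to 37.5). It was found in 28 members (12.6%) and in 0.793% of the other neurons. Ddc, the enzyme after Th in dopamine synthesis, had a ratio of 7.16 (4.90 to 10.3) and was found in 15.2% against 2.88%. Th itself was found in 12 members (5.38%) against 3.99%, with 17 UMIs and a ratio of 1.55 (0.886 to 2.53), whose interval holds 1. Ddc or Slc18a2 was found in 57 members (25.6%) and in 3.60% of the other neurons, both together in 5 members, and Th with either in 5 members (2.24%) and 8 other neurons (0.211%). Nr4a2, a nuclear receptor of midbrain dopamine neurons, was lower, with a ratio of 0.272 (0.181 to 0.395). Gch1, which makes a cofactor of Th, gave 2 UMIs in the members. Nr5a2, a nuclear receptor, was found in 11 members with a ratio of 4.53 (2.35 to 8.13). Of the 7 counted genes listed for Th neuron types of the adult ARC, 4 were over 2-fold higher, Nr5a2, Slc18a2 and Ddc among them, while Nfib and Lef1 were over 2-fold lower.

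Penk, which encodes the precursor of the enkephalin peptides, had a ratio of 25 (16.5 to 37.9), but its 53 UMIs lay in 25 members (11.2%), with up to 7 in a cell. Of 20 neurons with at least 2 Penk UMIs, 10 were members. Nts, which encodes neurotensin, gave 7 UMIs in 3 members and a ratio of 2.33 (0.902 to 5.08). The other 17 neuropeptide genes with enough UMIs were not over 2-fold higher. Of them, 14 were over 2-fold lower, against 15% over all genes. Among these were Tac1 with 3 UMIs and a ratio of 0.0551 (0.0113 to 0.161), Npy with 4 UMIs and Sst with 9. The rule removed cells with Otp or Ghrh and cells high in Pomc from the members but not from the other neurons. The count of 14, with Npy, Agrp and Sst in it, does not separate the part of this difference. Gal gave 1 UMI and Tac2 none, where a count of 0 is taken to allow up to 3 counts in the members (1-sided 95% limit).

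Insm1, a zinc finger factor of newborn neurons, had a ratio of 5.04 (4.23 to 5.98) and was found in 46.6% against 14.5%. Gadd45g, a stress and differentiation gene of neuronal precursors, had a ratio of 2.09 (1.63 to 2.64). It was the 1 of 7 counted genes of intermediate precursors over 2-fold higher, Neurog2 was over 2-fold lower with 1 UMI in the members, and 5 lay between. Of 11 counted neuron genes, against 3.99% higher and 15% lower over all genes, none was over 2-fold higher, 9 lay between, and Rbfox3 (0.448, 0.255 to 0.732) and the neurofilament gene Nefl (0.287, 0.182 to 0.433) were over 2-fold lower, so that these counts were near the shares over all genes. Tubb3, the tubulin of neurons, was found in 96.9% of the members and 97.5% of the other neurons, with a ratio of 0.879. Of the 55 counted timing and subtype factors, 4 were over 2-fold higher, Zfhx3, Meis1 and Ebf2 among them, and 17 were over 2-fold lower, against the same shares. Further leading genes were Nxph1, which encodes a ligand of neurexins (ratio 8.55), the receptor gene Kit (7.85), Igfbp5, which encodes a binder of insulin-like growth factors (4.63), the nucleosome-binding gene Hmgn5 (3.81), Fgf14, which encodes a partner of sodium channels (3.79), and Tekt1, a tektin gene (3.68). Igfbp5 was also found in 30.3% of the cells with no Stmn2 UMI (177 CPM), against 43.0% of the members (252 CPM), and Hmgn5 in 18.2% (59.5 CPM) against 19.7% (88.0 CPM), so that a UMI of either does not mark these neurons. Tekt1 was found in 7.10% of those cells against 10.3% of the members. The sodium channel gene Scn9a was found in 42.2% of the members against 18.1%, with a ratio of 3.51 (2.90 to 4.22).

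Nrxn3, a synaptic adhesion gene, was found in 107 members (48.0%) against 23.7% of the other neurons, with a ratio of 2.56 (2.15 to 3.03). The protocadherin gene Pcdh17 was found in 90 members (40.4%) against 21.5%, a ratio of 2.59 (2.18 to 3.06), and with Cdh4 (2.54, 1.97 to 3.24) and Pcdh7 (2.4, 1.79 to 3.16) these were the 4 of 29 adhesion genes over 2-fold higher. Another 4 of the 29 were over 2-fold lower, a share near the 15% over all genes, among them Cntnap2, with 9 UMIs and a ratio of 0.136 (0.0620 to 0.258). Of 35 guidance genes, against the same 3.99% and 15% over all genes, Unc5c, a netrin receptor, was the 1 over 2-fold higher, at 2.90 (2.03 to 4.04), and 11 were lower, among them the Slit receptor gene Robo1 at 0.380 (0.243 to 0.567). Of 40 channel and transmitter receptor genes, 4 were over 2-fold higher and 8 lower, against 3.99% and 15% over all genes. With at least 5 UMIs expected in the members, 2 of 31 were higher, Gria4 and Scn9a, and 7 lower, against 1.39% and 7.16% over all genes under that filter, and the other two higher genes, Grik1 and Gabrg1, rest on 3 and 6 UMIs. Of 13 counted hormone and peptide receptor genes, 3 were over 2-fold higher and 5 lower, against 3.99% and 15% over all genes. With at least 5 UMIs expected in the members, 0 of 4 were higher and 0 lower. Prlr, the prolactin receptor, was found in 9 members with 10 UMIs and a ratio of 5.55 (2.47 to 11.3). The oestrogen receptor gene Esr1 was at 0 in the members. Fewer than 5 UMIs were expected for either gene, so the 0 of Esr1 does not show its absence.

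Genes on the list for the suprachiasmatic nucleus were over 2-fold higher in 5 of the 9 that could be counted, against 3.99% over all genes, namely Six6, Vax1, Rora, Rorb and Zfhx3. Six6 (chr12:72939892-72944899) had a ratio of 5.94 (5.41 to 6.51), with a median of 2 UMIs per member and 0 per other neuron. Vax1, a homeodomain factor of the ventral forebrain, was found in 13 members (5.83%) with a ratio of 12.8 (5.92 to 26.6). The orphan nuclear receptor genes had ratios of 3.58 for Rorb (2.72 to 4.63) and 4.09 for Rora (2.53 to 6.37), and Zfhx3, a large zinc finger and homeodomain factor, one of 2.04 (1.85 to 2.23). Six3 was found in 124 members (55.6%) against 40.4%, with a ratio of 1.71 (1.51 to 1.93). Avp, the vasopressin gene, was lower, with 4 UMIs in the members.

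Factors of other hypothalamic fields were low in the members. Of the 16 counted field and ARC factors, 13 were over 2-fold lower and Six6 alone was over 2-fold higher, against 15% and 3.99% over all genes, with a median log2 ratio of -1.64. Rax, a factor of hypothalamic progenitors, was at 0 in the members and gave 80 UMIs in the other neurons. Sox14, a factor of kisspeptin neurons and of the ventromedial nucleus, gave 5 UMIs in 2 members, with a ratio of 0.0910 (0.0295 to 0.213). Tbx3 followed at 0.0935 (0.0192 to 0.274) and Nkx2-1 at 0.124 (0.0694 to 0.205). Nhlh2, a bHLH factor of Pomc and kisspeptin neurons, was found in 8.52% of the members against 41.6%. Among the LIM homeodomain and cofactor genes, none of 15 was over 2-fold higher, which is near the 3.99% over all genes, and 8 were over 2-fold lower against 15% over all genes, among them Isl1 with a ratio of 0.188 (0.124 to 0.275), Lhx9 with 0.234 (0.162 to 0.328), Lhx2 with 0.218 and Lmo1, a LIM-only cofactor, with 0.120 (0.0517 to 0.237). Lhx5, the closest relative of Lhx1, gave 1 UMI in the members and 175 in the other neurons. Further genes among the 10 lowest ratios were Robo3, a receptor for axon crossing, the Wnt enhancer Rspo3, the RNA binder Rbms3 and Vstm2a.

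Markers of other cells were counted beside these results. Tcf7l2, the leading factor of thalamic neurons, was found in 30 members (13.5%) and in 52.8% of the other neurons, with a ratio of 0.172 (0.142 to 0.207), and reached 20 UMIs in a member. Of the 9 thalamus genes, 8 were over 2-fold lower, with Rora higher, and all 6 habenula genes were lower, against 15% over all genes. The thalamus list summed to 387 CPM in the members and 1822 CPM in the other neurons. Gbx2, which defines the thalamus, was at 0 in the members, and so were Neurod6 and Nhlh1 of the habenula list. Of the ventromedial hypothalamus list, 5 of 6 genes were over 2-fold lower. Without the 21 members that held 3 or more UMIs of the thalamus or habenula lists together, a setting chosen after the data were seen, the ratio was 6.40 for Six6 and 21.6 for Sp9. The ratios of Tcf7l2, Lhx9 and the other listed genes are not read from this setting, since it removes cells by their counts. Of the 5 macrophage genes, Aif1, C1qa and C1qb were at 0 in the members, and Tyrobp and Csf1r gave 2 and 1 UMIs. Of the 4 genes of oligodendrocyte precursors, Olig1, Olig2 and Sox10 were at 0, and Pdgfra gave 1 UMI. Of the 5 endothelial genes, Cldn5, Cdh5, Kdr and Flt1 were at 0, and Pecam1 gave 10 UMIs in 9 members, with a ratio of 1.35 (0.633 to 2.54) to the other neurons. No member held 3 or more UMIs of any of these 3 lists. Neural progenitor genes summed to 217 CPM in the members against 459 CPM in the other neurons and 2338 CPM in the cells with no Stmn2 UMI.

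The levels of Lhx1 and Lhx1os varied among the members, and the shares of other genes varied with them. Among neurons without Ghrh and Otp and with fewer than 3 Pomc UMIs, 2626 had no UMI of the pair, 90 had 1, 54 had 2, 64 had 3 to 4, 71 had 5 to 7 and 34 had 8 or more. Across these classes Dlx1 was found in 3.96%, 20%, 37.0%, 51.6%, 59.2% and 73.5% of the cells. The share with Six6 was 19.4%, 46.7%, 77.8%, 89.1%, 93.0% and 91.2%, so that it was near its highest value at 3 to 4 UMIs. Sp9 was found in 13.0% of the cells with 2 UMIs and in 50% of those with 8 or more. Gad2 and Slc32a1 showed no such order among the members: Slc32a1 was found in 18.5%, 20.3%, 23.9% and 20.6% of the 4 classes of members. Penk was found in 15.6% of the members with 3 to 4 UMIs and in none of the 34 with 8 or more. The median UMI number of the 4 classes was 2725.5, 2817.5, 2857 and 3128, and the part of depth in these shares was not tested.

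The cells just inside and just outside the limit on Lhx1 differed in several genes, given here as a description. The 54 members with 2 UMIs had Nkx2-1 in 3.70% of cells and Tcf7l2 in 18.5%, and the 90 neurons with 1 UMI had Nkx2-1 in 30% and Tcf7l2 in 40%. Six6 was found in 77.8% of the former and 46.7% of the latter, and Dlx1 in 37.0% and 20%. The 29 cells left out for low Stmn2 had Six6 in 86.2% and Dlx1 in 44.8%, which are values close to those of the members. The 18 cells left out for Ghrh, Otp or Pomc had Sp9 in 44.4% and Nkx2-1 in 27.8%.

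**Figure D2:**
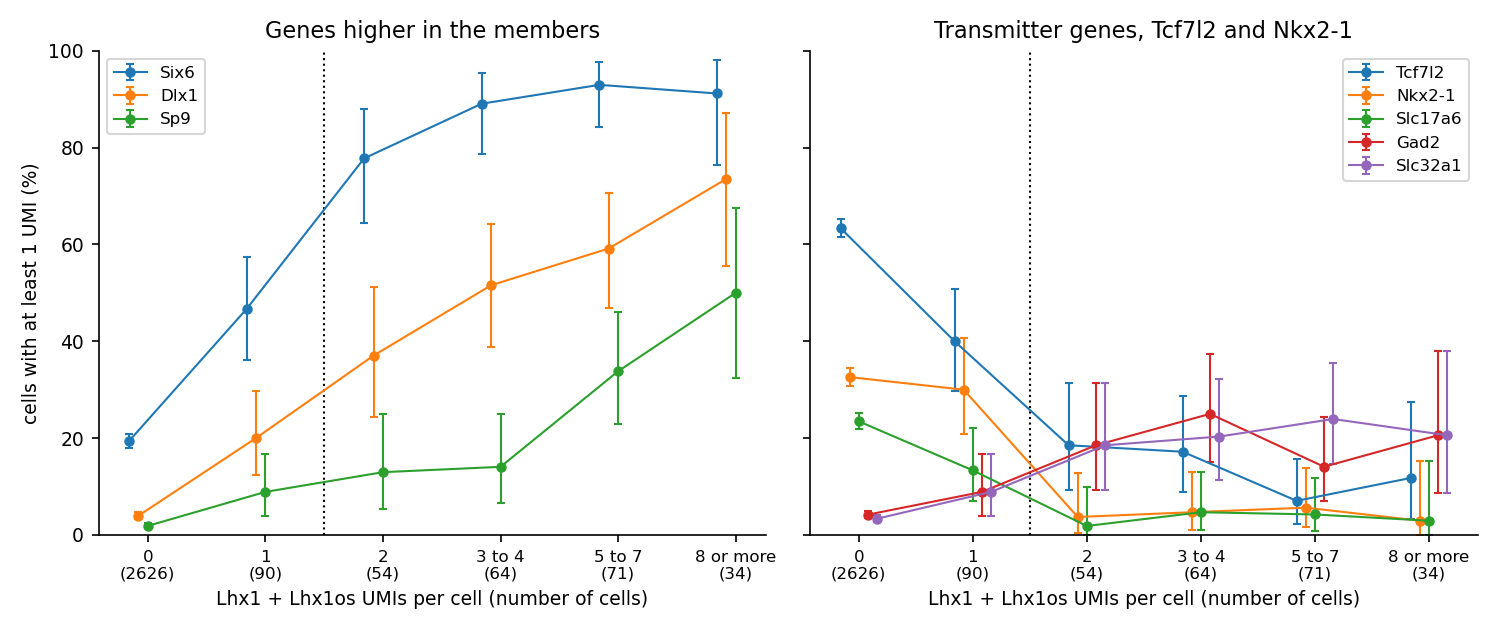
Percent of cells with at least 1 UMI of each gene (y axis) by the sum of Lhx1 and Lhx1os UMIs per cell (x axis, number of cells in brackets), with exact 95% binomial intervals. Cells to the right of the dotted line are the 223 members. Dlx1 goes from 3.96% at 0 UMIs to 73.5% at 8 or more, and Nkx2-1 from 32.6% to 2.94%.

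Dlx1 or Dlx2 UMIs were found in 155 of the 223 members (69.5%), called Dlx-positive here, and in none of the other 68, called Dlx-negative. Their depth was alike, with medians of 2832 and 2795.5 UMIs, and Dlx-positive cells made up 68.8% of the shallower and 70.3% of the deeper members. The split was set by the counts of Dlx1 and Dlx2, so these genes are not compared. Of 4761 genes with at least 20 UMIs in the members, 248 (5.21%) were over 2-fold higher and 111 (2.33%) over 2-fold lower in the Dlx-positive cells. The balance of these counts depended on the measure: the whole interval lay above 1 for 143 genes and below 1 for 142, and with 1 UMI in each group as the only filter 993 genes were over 2-fold higher and 1324 lower. The whole interval lay beyond 2-fold for 3 genes higher, Bcl11b, Dlx6os1 and Nwd2, and for 5 lower, Pax6, D930028M14Rik, Calb2, Zic4 and Tcf7l2. Nwd2 and Calb2 are named after their values were seen.

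Bcl11b, a zinc finger factor of GABA projection neurons, stood at 168 CPM in the Dlx-positive and 20 CPM in the Dlx-negative members, a ratio of 8.40 (3.16 to 31.6), and was found in 41.3% and 5.88% of the cells. Over all members it had a ratio of 1.20 (0.955 to 1.5) to the other neurons. Dlx6os1 had a ratio of 5.26 (2.31 to 14.8), but Dlx5 and Dlx6 did not go with it: Dlx5 was found in 36.8% of the Dlx-positive and 39.7% of the Dlx-negative members, with a ratio of 0.819 (0.544 to 1.25), and Dlx6 in 20% and 26.5%, with a ratio of 0.632 (0.363 to 1.12). Of the 68 Dlx-negative members, 35 (51.5%) had a UMI of Dlx5, Dlx6 or Dlx6os1. Sp9 had a ratio of 3.20 (1.65 to 6.93) and was found in 32.3% and 10.3%.

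Ddc or Slc18a2 was found in 49 Dlx-positive (31.6%) and 8 Dlx-negative members (11.8%), with intervals of 24.4% to 39.6% and 5.22% to 21.9%. The ratio was 2.42 for Ddc (1.01 to 7.04) and 2.32 for Slc18a2 (0.886 to 7.71). Of 17 Th UMIs, 16 lay in Dlx-positive members. The Dlx-negative members were not lower in GABA genes: Gad1, Gad2 or Slc32a1 was found in 34 of them (50%) against 63 Dlx-positive members (40.6%), and Gad2 alone had a ratio of 0.490 (0.267 to 0.908) of Dlx-positive over Dlx-negative. Six6 was found in 91.0% and 80.9%, with a ratio of 1.26 (1.04 to 1.53).

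Of the 29 timing and subtype factors counted in the split, 5 were over 2-fold lower in the Dlx-positive members, Zic1, Zic4, Zfhx4 and Ebf1 among them, and 4 were over 2-fold higher, Bcl11b, Nfia and Nfib among them, against 2.33% lower and 5.21% higher over all genes of the split. Zic1, a zinc finger factor of the dorsal and rostral neural tube, stood at 345 CPM against 129 CPM in the Dlx-positive members, a ratio of 0.373 (0.260 to 0.533). Its neighbour gene Zic4 had a ratio of 0.277 (0.168 to 0.449), with 45 UMIs in 11 Dlx-negative cells (16.2%) and 30 UMIs in 11 Dlx-positive cells (7.10%). Of the Zic1 UMIs, 90 lay in 37 members that had at most 15 members among their 30 nearest neighbours, described below, and 41 in the other 186. Both ratios thus rest on part of the cells. Zfhx4 had a ratio of 0.379 (0.199 to 0.716). Pax6, a factor of the eye and prethalamus, gave 32 UMIs in 4 Dlx-negative members and 1 UMI in the others, with up to 11 in a cell, so that its ratio rests on few cells. Tcf7l2 had a ratio of 0.293 (0.198 to 0.430), although similar shares of cells had it, 13.5% of the Dlx-positive and 13.2% of the Dlx-negative. Without the 21 members that held 3 or more UMIs of the thalamus or habenula lists, 9 of them Dlx-negative, its ratio turned to 1.44, but this setting removes cells by Tcf7l2 itself, which is on the thalamus list. The ratio also turned to 2.44 among members with at least 3 UMIs of Lhx1 and Lhx1os and to 1.32 with at least 2 of Lhx1 alone, so that its direction depended on the choice of members. Without the 21 members, the ratio of Bcl11b was 9.81 and that of Zic1 0.393. The thalamus list summed to 309 CPM in the Dlx-positive and 575 CPM in the Dlx-negative members. The other genes with the lowest ratios by the naming rule, Fam208a, Pisd, Rora, Agpat1, Kctd12, Trank1 and Cenpw, had 7 to 12 UMIs in the Dlx-positive and 12 to 20 in the Dlx-negative members. Those with the highest were Slc38a10 (ratio 11.6, 1.92 to 475), Chn2, Col9a3, Pgd, Rab36, Cenpc1, Plagl1, Abat and Pcdh7, most of which rest on 1 or 2 UMIs in the Dlx-negative members.

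**Figure D3:**
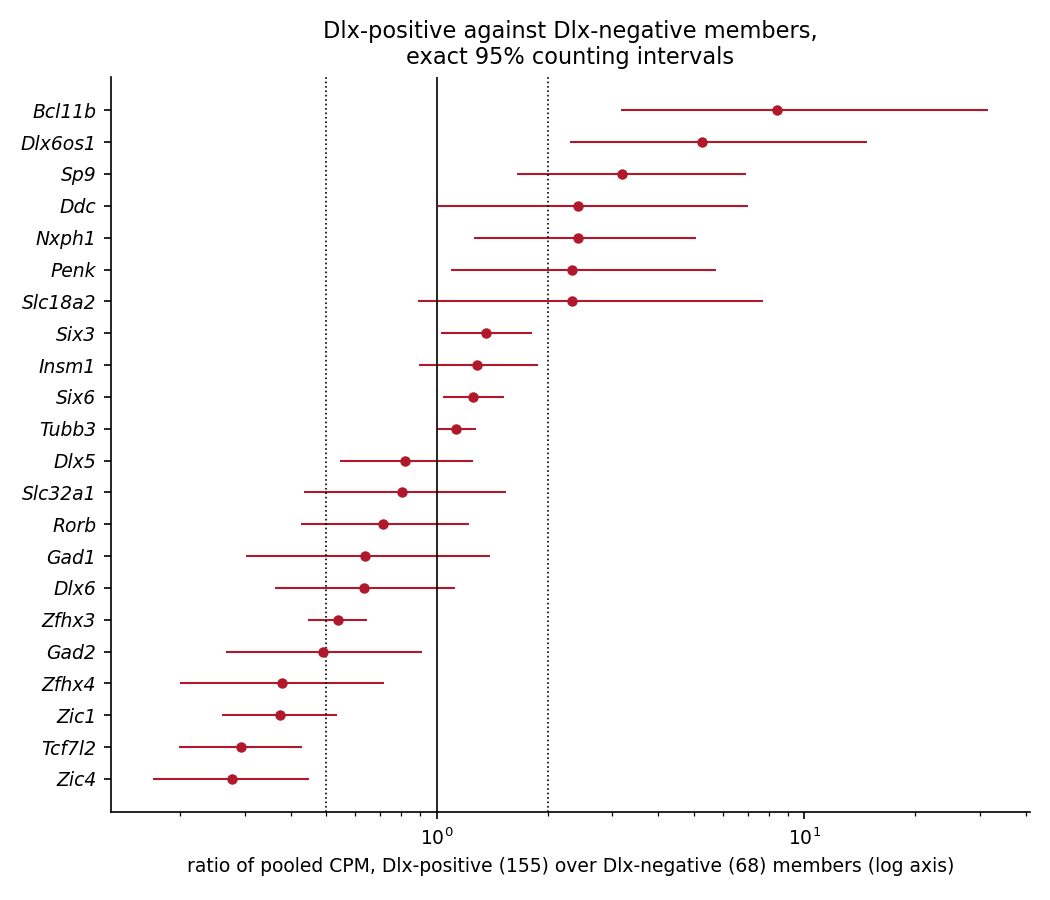
Ratio of pooled CPM of the 155 Dlx-positive over the 68 Dlx-negative members (x axis, log scale) for 22 named genes, with exact 95% counting intervals. The solid line marks a ratio of 1 and dotted lines mark 2-fold. Bcl11b stands at 8.40 and Zic4 at 0.277, and the interval of Dlx5 holds 1.

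As a comparison group, 169 other neurons were taken with a Dlx1 or Dlx2 UMI but no Lhx1, Lhx1os, Th, Ghrh or Otp UMI and fewer than 3 of Pomc. Their median depth was 2947 UMIs. Dlx1, Dlx2 and Th set this group and are not compared. The members were not selected on them: 68 of the 223 had no Dlx1 or Dlx2 UMI, and 12 had Th. The part of this difference in the ratios, that of Slc18a2 among them, was not tested. Of 6772 genes, 215 (3.17%) were over 2-fold higher and 225 (3.32%) over 2-fold lower in the Lhx1-positive neurons. The ratios of the GABA programme lay near 1, most with an interval that holds 1: the ratio was 1.34 for Dlx5 (0.984 to 1.83), 1.29 for Dlx6os1 (0.907 to 1.86), 1.0 for Gad1 (0.589 to 1.73) and 1.29 for Slc32a1 (0.816 to 2.07), and no GABA transmitter gene of 4 passed 2-fold. Dlx6 had a ratio of 1.60 (1.01 to 2.55).

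Against the Dlx neurons without Lhx1, Six6 and Sp9 were higher in the Lhx1-positive neurons. The ratio was 7.60 for Six6 (5.88 to 9.95) and 12.4 for Sp9 (5.46 to 34.6). Slc18a2 had a ratio of 9.38 (2.94 to 47.8), Penk one of 9.04 (3.64 to 29.0), Nxph1 one of 9.13 (4.22 to 23.5), Insm1 one of 5.18 (3.43 to 8.10) and Kit, with 1 UMI in the Dlx neurons, one of 24.7 (4.10 to 1010). In the other direction, Nkx2-1 was found in 46.7% of the Dlx neurons without Lhx1 against 4.48% of the members, a ratio of 0.0858 (0.0469 to 0.146). Isl1 had a ratio of 0.178 (0.113 to 0.272), Tbx3 one of 0.0350 (0.00706 to 0.107) and Hmx2, a homeodomain factor of Ghrh neurons, one of 0.0474 (0.0150 to 0.115). At least 1 of Nkx2-1, Isl1 and Tbx3 was found in 118 of the 169 Dlx neurons (69.8%) and in 29 of the 223 members (13.0%). Neurons with at least 2 Th UMIs and none of Lhx1, Lhx1os, Ghrh or Otp numbered only 17. Isl1 was found in 76.5% of these 17 cells and in 9.87% of the members.

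**Figure D4:**
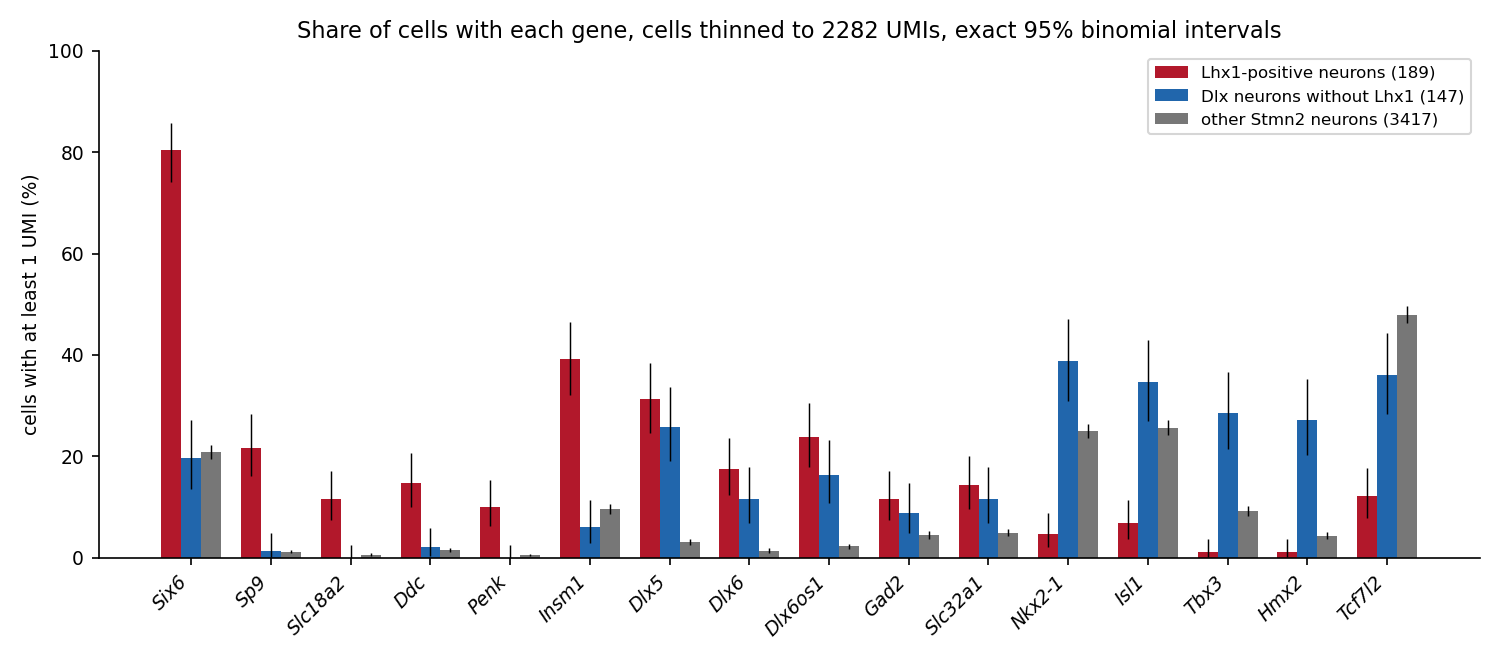
Percent of cells with at least 1 UMI (y axis, from 0) of 16 genes after thinning each cell to 2282 UMIs, in 189 Lhx1-positive neurons (red), 147 Dlx neurons without Lhx1 (blue) and 3417 other neurons (grey), with exact 95% binomial intervals. Sp9 reaches 21.7% in red against 1.17% in grey, Dlx5 is similar in red and blue, and Nkx2-1 is low in red.

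Pairs of named genes, among them genes that were lower in the members such as Tcf7l2, Nkx2-1 and Isl1, were counted together within single members. Among 595 pairs of genes in the 189 thinned members, the count of cells with both was divided by the count expected if each gene were found irrespective of the other, and given an exact Poisson interval. The interval left out 1 for 11 pairs, 1.85% of all, 7 above and 4 below. Among 595 such intervals some leave out 1 by counting error alone, and no allowance was made for the number of pairs. The 11 pairs are therefore a description and are not read as associations. Dlx2 and Dlx6os1 were found together in 29 cells against 14.8 expected (ratio 1.96, 1.32 to 2.82), and Tcf7l2 and Zic1 in 11 against 3.65 (3.01, 1.5 to 5.39). Dlx6os1 and Zic1 were found together in 0 cells against 7.14 expected. Dlx1 and Dlx2 had a ratio of 1.18 (0.816 to 1.65). Apart from the 11, the interval of every pair held 1.

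Whether the members lie close to each other by all their genes was described by nearest neighbours. For each of the 4006 neurons the 30 nearest were found in 20 principal components of the log-normalized counts of 1500 variable genes, with the 6 selecting genes left out. Members made up 68.1% of the neighbours of members and 1.97% of those of the other neurons, against 5.54% of the cells to choose from. More than 15 of the 30 neighbours were members in 186 of the 223 members, in 141 of the 155 Dlx-positive and in 45 of the 68 Dlx-negative. With 10 components in place of 20, this held for 106 of the 223 members, and members made up 47.2% of the neighbours of members. The neighbours of Dlx-negative members were Dlx-positive members in 32.5% and Dlx-negative members in 25.5%, where these 2 groups make up 3.87% and 1.70% of the cells. No member was a neighbour of 7 members. The other 37 members, with at most 15 member neighbours, had Tcf7l2 in 45.9%, Zic1 in 43.2% and Lhx9 in 24.3% of cells, against 6.99%, 15.6% and 3.23% in the 186. Six6 was found in 62.2% of the 37 and 93.0% of the 186. These genes were among those that set the distances, so the values are a description. In 58 neurons that were not members, more than 15 neighbours were members. Of these 25 had 1 UMI of Lhx1 or Lhx1os, 11 had 2 or more but were left out by another limit, and 22 had none. Six6 was found in 67.2% of the 58 and Dlx1 in 56.9%.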

How the data were processed

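Single-cell RNA sequencing was done on 1 pooled library of E15 ARC. The authors deposited 1 table of raw UMI counts, with 27998 genes and 6465 barcodes, made per the labels and the submitters' processing notes with Cell Ranger 2.1.1 and STAR 2.4.0 on mm10; Seurat 2.0 is also listed. The 4 deposited samples are runs of this library and were treated as 1 sample. Barcodes were dropped below 200 or above 4500 genes, above 10% of UMIs from mitochondria or above 10 UMIs of Hba-a1. The study used fewer cells than these limits leave here, and the reason was not tested. No doublet caller was used, and the gene limit was the sole guard. Python 3.11.15, numpy 2.4.6, scipy 1.17.1, pandas 2.3.3, scikit-learn 1.9.0 and matplotlib 3.10.9 were used. Pooled CPM carry exact Poisson, shares Clopper-Pearson and ratios conditional binomial 95% intervals, all for counting error only, and the scripts were tested on simulated data. Leading genes were the 20 highest and 10 lowest ratios among genes with at least 20 UMIs and found in at least 10% of the group, genes of the selection left out, with 10 each way for the Dlx split, and genes of 37 lists could be named. A gene with no UMI in a group was set to 3 counts for list medians. The members and lists were chosen with earlier results of these data known. Gene positions are from GENCODE vM21 on GRCm38. Alternatives covered the limits on cells, the selection, the gene filter, thinning, the groups compared and the neighbour settings. Some genes, leading genes among them, are not reported here.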

Additional observations from a re-analysis of the deposited data

How the results depend on the processing

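No paired analysis was possible because all embryos were pooled in 1 library, and no replicate could be left out. The cells limit the depth: most members have 0 UMIs of most leading genes, so a missing UMI does not show a missing RNA. Of 451 recomputed ratios of 41 named genes in members over the other neurons, none of those past 2-fold changed direction, 385 stayed within the counting interval of the reported ratio and 66 left it. For Dlx-positive over Dlx-negative members, 132 of 144 stayed within it, 9 left it and 3 changed direction, all of Tcf7l2: 2.44 with at least 3 UMIs of Lhx1 and Lhx1os, 1.32 with at least 2 of Lhx1 alone and 1.44 without the members with thalamus or habenula UMIs. The share of members with Dlx1 or Dlx2 was 57.5% with 1 UMI of the pair, 75.7% with 3, 81.9% with 2 of Lhx1 alone (94 members), 61.4% after thinning and 43.9% with 2 Dlx UMIs required. Genes over 2-fold higher and lower in the members numbered 262 and 1216 with at least 50 UMIs, 1065 and 1047 with 1 UMI in each group, 126 and 649 with 5 expected UMIs (added after the data were seen), and 801 were higher with Lhx1 alone. In the Dlx split, 662 were higher and 372 lower with at least 10 UMIs, 22 and 13 with at least 50, and 993 and 1324 with 1 in each group; 151 were higher with 2 Dlx UMIs and 210 lower with 1 Lhx1 or Lhx1os UMI. The gene filters change how many genes are tested. The share of member neighbours was 47.2% with 10 components. With 2 Dlx UMIs required, 73 Dlx neurons without Lhx1 remained and 390 genes were over 2-fold higher than in them, and with 1 Th UMI the Th neurons numbered 52.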
